A study of Rattus norvegicus with 6 samples.

Results

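MicroRNA (miRNA) reads that differ from their precursor at 1 base inside the read were examined in AR42J cells, an established rat line derived from the exocrine pancreas. A read was taken when it aligned to a miRNA precursor without gaps and with 1 mismatch, and the mismatch lay from base 2 to the read length minus 3. This gave 27535 distinct read sequences of the 53526 that aligned to miRNA precursors, and 948882 reads. Of these sequences, 4066 were found with an internal mismatch in all 6 libraries.

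Small RNA had been sequenced in 6 libraries. Cells of 3 libraries were untreated and those of the other 3 had received sodium taurocholate at 200 µM, over 30 min; taurocholate is a bile salt used to injure acinar cells in models of pancreatitis. Both groups came from the same line, with no other agent named. Whether each library stands for its own culture is not stated in the labels, so the p-values rest on a spread that may be technical. Every RNA sample was treated before library preparation to remove aminoacyl groups, cyclic phosphates and the methyl groups of 1-methyladenosine and 3-methylcytidine, and to phosphorylate 5′ hydroxyls.

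Adenosine deaminases acting on RNA (ADARs) convert adenosine in double-stranded RNA to inosine. Inosine pairs like guanosine and is read as G, so an edited miRNA precursor gives reads with G in place of A. Editing in the seed, the stretch near the 5′ end of a miRNA that pairs with its targets, redirects the miRNA to other targets, and the best known mammalian cases, such as those in the miR-376 cluster, lie there. ADARs favour an adenosine that follows U and disfavour one that follows G. Errors of reverse transcription, amplification and sequencing also give internal mismatches, and the 11 other base changes served as the background.

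The sequences below show the kinds of site the results turn on, from the deposited reads as DNA letters, 5′ to 3′. A change such as A17G names the base of the precursor, its position counted from the 5′ end of the mature miRNA, and the base of the read. Capitals mark every A of the most abundant miRNA, and otherwise the base at the named position.
miR-148a-3p, most frequent error-free read, every A in capitals: tcAgtgcActAcAgAActttgt
let-7c-5p, most frequent error-free read: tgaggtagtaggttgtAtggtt
let-7c-5p A17G, most frequent read with the change: tgaggtagtaggttgtGtggtttt
let-7b-5p, most frequent error-free read: tgaggtagtaggttgtgtggtt
miR-22-3p, most frequent error-free read: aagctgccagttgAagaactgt
miR-22-3p A14G, most frequent read with the change: aagctgccagttgGagaactgt
miR-151-3p, most frequent error-free read: ctAgactgaggctccttgagg
miR-151-3p A3G, most frequent read with the change: ctGgactgaggctccttgagg
miR-155-5p, most frequent error-free read: ttAatgctaattgtgataggggtt
miR-155-5p A3C, most frequent read with the change: ttCatgctaattgtgataggggtt
miR-148a-5p, RefSeq mature sequence as RNA: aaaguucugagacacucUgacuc
miR-148a-5p T18C, most frequent read with the change: aaagttctgagacactcCgact
miR-27a-3p, most frequent error-free read: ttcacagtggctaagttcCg
miR-27a-3p C19T, most frequent read with the change: ttcacagtggctaagttcTgcc
miR-27b-3p, most frequent error-free read: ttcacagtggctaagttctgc

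Reads aligned to miRNA precursors numbered from 2791878 to 3987307 per library. In taurocholate replicate 1, 45.2% of ungapped reads had their mismatch outside the internal window, against 29.6% to 33.0% in the other 5 libraries. A mismatched G at the last base made up 22.2% of its reads and 1.20% to 5.33% of the others'. Since an alignment held at most 1 mismatch, such reads could show no internal one, and that library is therefore given separately where it moves a value. The 8 miRNAs taken as pancreas markers summed to between 413606 and 478790 CPM (reads scaled to the ungapped precursor reads of the library) untreated and 340131 to 449451 CPM with taurocholate. Nearly all of this was miR-148a and miR-7a, while the acinar miR-216a, miR-216b and miR-217 stood at 0 to 1.10 CPM in every library. Markers of other types summed to 14797 to 16868 (stroma) in untreated and 11782 to 16686 in taurocholate libraries, and to 2060 to 3856 and 1939 to 3643 (blood). Those of muscle spanned 34.9 to 1371 and 103 to 620, those of neurons 1099 to 1256 and 498 to 1113, and that of liver at most 26.8 and 23.7. Every marker on these lists was detected in at least 1 library, and their part in the results was not tested.

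Internal mismatches made up 5.19%, 4.55% and 5.11% of ungapped reads untreated and 3.73%, 4.67% and 4.58% with taurocholate. A read was counted as covering a position that lay in its own window, from base 2 to its length minus 3. Reads with a mismatch outside that window were included, although they could show no internal one, and so they lowered the shares. Positions covered by at least 500 reads in each library numbered 1886, in 100 mature miRNAs, and held 97.7% of the internally mismatched reads. At these positions 0.279%, 0.245% and 0.275% of covered bases were mismatched in untreated cells and 0.199%, 0.252% and 0.245% with taurocholate. The groups overlapped, and the difference of -0.0343 percentage points gave an exact two-sided permutation p of 0.3, where 0.1 is the smallest that 3 against 3 libraries allow. With reads mismatched at their ends left out of the coverage, taurocholate replicate 1 came level with its group, at 0.365% beside 0.367% and 0.368%, and the untreated libraries had 0.411%, 0.349% and 0.396%.

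A-to-G was the most frequent of the 12 base changes in all 6 libraries. It was read at 0.271%, 0.288% and 0.270% of covered A in untreated cells and at 0.208%, 0.272% and 0.263% with taurocholate, a mean of 0.276% ± 0.01003 against 0.248% ± 0.0348 (SD, n = 3 each). The groups overlapped, with an exact two-sided permutation p of 0.3, or 0.48 after Benjamini-Hochberg adjustment over the 12 changes. Without taurocholate replicate 1, the lowest of the 6, the difference went from -0.0284 to -0.0085 percentage points. With end-mismatched reads left out of the coverage it was -0.0068, at 0.395%, 0.406% and 0.385% against 0.382%, 0.392% and 0.391%.

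T-to-C, the complementary change, came next. It was read at 0.185%, 0.210% and 0.200% of covered T in untreated and 0.149%, 0.191% and 0.187% in taurocholate libraries. The A-to-G rate was 1.35 to 1.47 times the T-to-C rate within a library, a mean log2 ratio of 0.49 ± 0.04 (SD over the 6 libraries). It exceeded each of the 11 other changes in 6 of 6 libraries, and the exact sign-flip permutation p was 0.03125 for each, raw and adjusted, the smallest that 6 libraries allow. The same positions were pooled in every library, so this p measures how steady the order was between libraries, not between positions. The other transitions were lower: C-to-T lay at 0.0830%, 0.0834% and 0.0829% against 0.0597%, 0.0781% and 0.0755%, and G-to-A at 0.0634%, 0.0643% and 0.0659% against 0.0461%, 0.0615% and 0.0595%. These were the 2 changes whose groups of libraries did not overlap, both lower with taurocholate, with an exact permutation p of 0.1 and an adjusted p of 0.48 each. With end-mismatched reads left out of the coverage 3 changes did not overlap: these 2, again lower, and C-to-G, which was higher with taurocholate, at 0.0625%, 0.0594% and 0.0605% against 0.0587%, 0.0552% and 0.0533% (exact permutation p of 0.1, adjusted p of 0.4 each).

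Several transversions split the untreated libraries. C-to-A was read at 0.0813% and 0.0796% of covered C in untreated replicates 1 and 3 but at 0.0343% in replicate 2, with 0.0432%, 0.0483% and 0.0497% in the taurocholate libraries. A-to-C, G-to-C, G-to-T and T-to-A showed the same split. For A-to-C the untreated values were 0.0390%, 0.0165% and 0.0401% and the taurocholate values 0.0240%, 0.0232% and 0.0242%. For A-to-G, untreated replicate 2 was the highest of the 6. What set these libraries apart was not tested.

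Over the 469 A positions the A-to-G share had no separate high class. Its median was 0.225%, its 5th percentile 0.0645% and its 95th percentile 0.359%, so the 95th percentile stood at 1.60 times the median. The same ratio was 1.65 for T-to-C and between 2.04 and 9.41 for the other changes. No A-to-G site reached 1% as a mean over the 6 libraries, and 1 site exceeded 0.5%. With end-mismatched reads left out of the coverage, more sites exceeded 0.5%, though none reached 1% in every library. The means were then 0.796% for let-7c-5p A17G, 0.626% for miR-139-5p A11G and 0.604% for miR-30d-5p A21G, among others. For the 100 miRNAs taken whole, the A-to-G rate had a median of 0.227% and quartiles of 0.197% and 0.254%.

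The 5 most abundant miRNAs varied around this level from adenosine to adenosine. In miR-148a-3p, which is highly expressed in the pancreas, the 6 positions had mean shares from 0.245% at A11G to 0.368% at A13G. At A13G the libraries read 0.377%, 0.419% and 0.383% untreated and 0.265%, 0.376% and 0.387% with taurocholate, so that taurocholate replicate 1 was lowest and the groups overlapped. In miR-21-5p, a miRNA raised in many inflamed tissues, the range over 5 positions was 0.114% to 0.266%, lowest at A7G, which lies between T and T. In miR-7a-5p, abundant in pancreatic islets, the 5 positions ran from 0.245% to 0.361%. The 3 positions of let-7i-5p ran from 0.180% to 0.214%. In let-7f-5p, another member of this family of tumour suppressors, the 6 positions ran from 0.0644% to 0.235%, lowest at A12G. let-7a carries G at this base, so a read with that change alone could align to let-7a without error. Such reads were not counted at A12G, and its share cannot show how often this A was read as G. That site read 0.0508%, 0.0247% and 0.0374% in untreated libraries and 0.204%, 0.0277% and 0.0419% with taurocholate, so taurocholate replicate 1, the library rich in last-base G, stood far above the other 5.

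The lowest A-to-G rates belonged to miRNAs whose reads nearly all held another mismatch. In miR-532-5p the rate was 0.0044% over 4 positions, and 98.4% of its 39814 reads carried a mismatch, mostly T20C, with 38589 reads. In miR-148a-5p it was 0.0083%, with 99.1% of 4936 reads mismatched, and in miR-361-3p 0.0335%, with 94.1% of 7618 reads mismatched, mostly at C22T. Over the 100 miRNAs the median share of mismatched reads, internal or at the ends, was 39.3%. With 1 mismatch allowed per alignment, a second change in such reads could not be seen.

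The highest A-to-G share was let-7c-5p A17G, which changes let-7c into the letters of let-7b, its close paralog. It read 0.438%, 0.543% and 0.498% in untreated libraries and 0.582%, 0.665% and 0.608% with taurocholate, so the groups did not overlap. By edgeR's quasi-likelihood test with Benjamini-Hochberg adjustment over all sites tested, its log2 fold change of 0.32 (SE 0.17) had an adjusted p of 0.837. Of its reads, 96.2% also aligned to a precursor other than let-7c, and with such shared reads left out the mean share went from 0.556% to 0.0239%. A read with that change alone could align to let-7b without error. Such reads were not counted at A17G, and neither share can show how often this A was read as G. let-7c-5p comes from Mirlet7c1 and Mirlet7c2, and in the RefSeq table of assembly GRCr8 the mature sequence spans chr11:29688127-29688148 and chr7:118683636-118683657, both on the plus strand. The copy on chromosome 11 lies within the long noncoding RNA gene LOC103693508.

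The next A-to-G sites, ordered by their lowest library, had means from 0.333% to 0.421%. miR-30d-5p A21G had a mean of 0.378%, with library values of 0.442%, 0.365% and 0.334% untreated and 0.349%, 0.367% and 0.412% with taurocholate. This base lies near the 3′ end, and divided by every read that spans it, at the read's ends too, the mean was 0.201%. miR-24-2-5p A17G had 0.406%, miR-139-5p A11G 0.421%, miR-9a-3p A11G 0.389% and miR-128-3p A9G 0.355%. Counting error was wide for these: in untreated replicate 1 the 14 mismatched of 2983 covering reads of miR-24-2-5p gave an exact 95% binomial interval of 0.257% to 0.786%. Such intervals cover counting error only, and reads without molecular identifiers are not independent molecules. miR-100-5p A16G had a mean of 0.367%, and 98.5% of its reads were shared with another miRNA. miR-99a carries T at this base, so a read with G there is 1 mismatch from both miRNAs. Without shared reads 0.0057% was left, a value that cannot show how often this A was read as G. At miR-100-5p A10G, with no shared reads, the mean was 0.340%. The remaining sites of this order were let-7g-5p A19G at 0.345%, miR-26a-5p A16G at 0.333%, miR-10b-5p A9G at 0.342%, miR-22-3p A15G at 0.406%, miR-29b-3p A15G at 0.403%, miR-151-3p A3G at 0.374% and miR-26b-5p A5G at 0.342%. The A9G of miR-10b-5p counts from the RefSeq start, which lies inside its most frequent read, so the base lies further along that read. None of these 14 sites passed edgeR's quasi-likelihood test between the groups, with adjusted p from 0.837 to 0.995.

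A list of 28 miRNAs known for editing in mammals was looked at separately. Of these, 24 were detected and 5 (miR-151, miR-99a, miR-142, miR-22 and miR-27a) had positions with at least 500 reads in each library. Their 34 A positions had a median A-to-G share of 0.264% and a highest of 0.408%. Over the 435 A positions of the other miRNAs the median was 0.224% and the highest 0.556%. The latter was let-7c-5p A17G, of whose reads 96.2% were shared. Also outside the list, miR-139-5p A11G, with no shared reads, had 0.421%. The members best known for seed editing were nearly silent: miR-376a, miR-376b and miR-376c had 0 to 2 reads per library.

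Within that list the largest shares were in miR-22 and miR-151. miR-22-3p A14G read 0.463%, 0.467% and 0.442% untreated and 0.258%, 0.415% and 0.403% with taurocholate, and 4 of the 469 A positions were higher. The groups did not overlap, and edgeR's quasi-likelihood test gave a log2 fold change of -0.35 (SE 0.24) with an adjusted p of 0.837. Its neighbour A15G had a mean of 0.406%, and A16G and A15G of miR-22-5p had 0.401% and 0.388% on 1 mismatched read each in untreated replicate 1. miR-22 lies at chr10:60805387-60805408 (3p arm) and chr10:60805349-60805370 (5p arm), plus strand, in GRCr8.

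miR-151-3p A3G lies in the seed, follows T and precedes G, and so has the neighbour before it that ADARs favour. It read 0.308%, 0.273% and 0.411% in untreated libraries and 0.490%, 0.361% and 0.401% with taurocholate. The groups overlapped, and the log2 fold change was 0.34 (SE 0.25), with an adjusted p of 0.837 by edgeR's quasi-likelihood test. The A9G site of the same miRNA, which follows G, was as high, with a mean of 0.376% against 0.374%.

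By the base before it, the A-to-G rate was lowest after T in all 6 libraries. After T it was 0.199%, 0.219% and 0.210% in untreated and 0.160%, 0.202% and 0.196% in taurocholate libraries, over 136 positions. After G, over 107 positions, it was 0.277%, 0.300% and 0.271% against 0.225%, 0.282% and 0.275%, and after C, over 123 positions, it ran from 0.232% to 0.337%. By the following base the pooled rate was lowest before T, from 0.189% to 0.233%. Medians over positions were nearly level, at 0.220% before T and 0.224% to 0.233% before G, C and A. The median before T was 0.230% without the changes that spell another miRNA, above the 0.225% before C and G. Without the changes that spell another miRNA the rate after T ran from 0.157% to 0.216% and after G from 0.226% to 0.307%. By place, positions 2 to 8, which hold the seed, had 0.253%, 0.267% and 0.258% against 0.186%, 0.251% and 0.238%, below positions 14 to 18 in each library, at 0.296%, 0.303% and 0.277% against 0.225%, 0.295% and 0.288%. These rates pool positions of few abundant miRNAs and are given as a description. Places count from the start of the named mature sequence, which for miR-10b-5p lies inside its most frequent read.

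Changes other than A-to-G reached 1% in every library at 3 sites, of which the third, in miR-27a-3p, did so only over reads long enough to hold it in their window. In miR-148a-5p, the minor arm of the miR-148a hairpin, T18C made up 99.6%, 99.5% and 99.2% of reads in untreated and 99.1%, 99.5% and 99.5% in taurocholate libraries. The most frequent read with the change had 4258 reads, while the most frequent error-free read over the site had 16. RefSeq also has U there, at base 81664488 of chromosome 4 in GRCr8, on the minus strand. All 6 libraries therefore read C where the precursor used for alignment and RefSeq have T or U.

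In miR-155-5p, a miRNA of activated immune cells, A3C made up 10.5%, 10.4% and 8.43% of reads in untreated and 9.36%, 9.46% and 10.3% in taurocholate libraries. None of these reads aligned to another miRNA, and the groups overlapped, with a log2 fold change of -0.01 (SE 0.18) and an adjusted p of 0.994 by edgeR's quasi-likelihood test. The site lies in the seed, at base 37261119 of chromosome 11 in GRCr8, within the host gene Mir155hg. A second change in the same miRNA, T12C, was uneven, at 2.55%, 0.312% and 1.17% in untreated and 2.42%, 0.684% and 2.69% in taurocholate libraries.

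In miR-27a-3p, C19T read 6.68%, 7.48% and 5.71% in untreated and 3.72%, 5.39% and 4.38% in taurocholate libraries, over 983 to 2019 covering reads. Most reads of this miRNA end too close to base 19 to cover it: 17490 to 32233 reads per library span the base, and over all of these the share was 0.435%, 0.495% and 0.396% against 0.207%, 0.201% and 0.211%. Every one of these reads also aligned to miR-27b-3p, from which miR-27a-3p differs at that base. The groups did not overlap, and the log2 fold change of -0.57 (SE 0.21) had an adjusted p of 0.837 by edgeR's quasi-likelihood test. Just outside 1% stood let-7a-5p T9G, which spells let-7e-5p, at 1.06%, 1.24% and 1.11% untreated and 0.730%, 1.13% and 1.02% with taurocholate. Of its reads 91.2% were shared, and the mean without them was 0.0967% in place of 1.05%.

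Of the other named changes, miR-26a-5p C11T, at a mean of 0.751%, likewise spells miR-26b-5p and rested on shared reads alone. miR-22-3p C8T had no shared reads and a mean of 0.656%, with 0.797%, 0.567% and 0.595% in untreated and 0.591%, 0.830% and 0.554% in taurocholate libraries. It lies in the seed, and its groups overlapped. miR-199a-5p A13C had a mean of 0.724%, and T2A had 0.443% in miR-26b-5p and 0.395% in miR-26a-5p, whose first bases are the same.

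No site passed edgeR's quasi-likelihood test between untreated and taurocholate cells with Benjamini-Hochberg adjustment, among 1324 sites with at least 10 mismatched reads in at least 3 libraries (0.0%). Adjusted p started at 0.837. Before adjustment, 67 sites (5.06%) had p under 0.05, 13 higher with taurocholate (0.982%) and 54 lower (4.08%), while DESeq2 had 34 and limma 54, with no site past an adjusted p of 0.05 in either. The groups of libraries did not overlap at 138 sites (10.4%). Of the 267 A-to-G sites tested, 8 had an unadjusted p under 0.05, 4 of them higher, and 31 did not overlap. Their median log2 fold change was -0.08, beside -0.13 over all 1324 sites. Without taurocholate replicate 1, edgeR gave 36 of 1244 sites an unadjusted p under 0.05, 17 of them higher. The median log2 fold change was then -0.064 over all sites and -0.0057 over A-to-G sites. With end-mismatched reads left out of the coverage, 63 of 1323 sites had such a p, 20 of them higher, and the medians were -0.068 and -0.012. A p above the threshold does not show that the shares were equal.

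The largest number of calls came with untreated replicate 2 left out, the library lowest in C-to-A, A-to-C, G-to-C, G-to-T and T-to-A. Without it, 65 sites were called, all lower with taurocholate and none of them A-to-G, of which 62 were A-to-C, A-to-T, C-to-A, G-to-C, G-to-T or T-to-A. Without each of the other 5 libraries no site was called.

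Among the sites with the smallest p, those higher with taurocholate included a seed position of miR-32-5p. Its A7G share read 0.106%, 0.208% and 0.180% in untreated and 0.354%, 0.631% and 0.354% in taurocholate libraries, a log2 fold change of 1.32 (SE 0.45). The untreated values rested on few reads, with 2 in replicate 1. miR-24-3p A7G read 0.132%, 0.147% and 0.109% against 0.241%, 0.224% and 0.206%, a log2 fold change of 0.77 (SE 0.26). The groups did not overlap at either site, and edgeR's adjusted p was 0.837 for both. miR-182 G4A (0.0421% against 0.0830% as group means), miR-27a-3p T8A (0.0560% against 0.0957%) and miR-151-3p T2A (0.126% against 0.242%) completed those higher.

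The lower sites were paralog letters or transversions. miR-196a-5p A12C, the letters of miR-196b, read 0.336%, 0.393% and 0.433% in untreated and 0.137%, 0.123% and 0.163% in taurocholate libraries, and had the smallest unadjusted p by edgeR's test, 0.000758, with a log2 fold change of -1.44 (SE 0.30). miR-100-5p A16T, the letters of miR-99a, read 0.499%, 0.542% and 0.646% against 0.211%, 0.344% and 0.318%. All reads of both changes were shared with the paralog, and the groups did not overlap. The others had low shares in very deep miRNAs. let-7i-5p A3C read 0.0315%, 0.0147% and 0.0396% against 0.00806%, 0.0134% and 0.00818%, with untreated replicate 2 again the lowest of its group. miR-21-5p A2C and miR-148a-3p C2G had group means of 0.0250% against 0.0096% and 0.0252% against 0.0133%.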

How the data were processed

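Libraries were gel-selected by size and read in single-end mode (Illumina NextSeq), per the labels' protocols. The submitters' processing notes name Novoalign 2.07.11, cutadapt and FastQC. A genome build is not given in the sources. The deposited values are read counts: per the file headers, each line is an alignment of 1 read sequence of 16 to 28 nt to a miRNA precursor, with its number of reads and its mismatch. Alignments to tRNA were not used here. Gapped alignments were left out.

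Each read sequence was counted once per library, for the miRNA with most error-free reads that align to it alone. Precursors with the same mature sequence were joined. Names and positions came from RefSeq mature sequences of GRCr8 for 90 of 100 miRNAs, otherwise from the precursor and the most frequent read start. A read covers the positions in its own window, base 2 to its length minus 3, and covering reads include reads mismatched elsewhere. The share of a change is its reads over the reads covering the position so defined; over the 1886 positions the median position kept 100.0% of the reads spanning it, and 69 kept under 50%.

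Sites were tested with edgeR 4.0.16 (R 4.3.3) by its quasi-likelihood test on mismatched reads, with the log of covering reads as offset and Benjamini-Hochberg adjustment over all sites. It was tested on simulated data. DESeq2 1.42.0 and limma 3.58.1 were alternatives, beside other coverage minimums, a narrower window, unshared reads, libraries left out in turn and, added after seeing the data, coverage without end-mismatched reads, coverage by every spanning read, and sites without paralog letters. Single values were compared by exact permutation tests over libraries with scipy 1.17.1.

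Named sites are the 15 A-to-G and 10 other sites with the largest of their lowest library share, the 5 with the smallest p in each direction, and the 5 largest A-to-G shares among 28 edited miRNAs. The sites shown as neighbours of 1%, miRNAs of lowest A-to-G rate and the 5 most abundant miRNAs were added after their values were seen. Members, lists and rules were chosen with earlier results of these data known.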

Additional observations from a re-analysis of the deposited data

Results flagged for a closer look

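Positions with fewer than 500 covering reads in some library were outside the comparisons above. Among them, 10 A-to-G sites had at least 10 mismatched reads and a share of at least 1% over the 6 libraries together, above the limit that a count of 0 allows. Shares are over pooled reads, intervals are exact 95% binomial intervals that cover counting error only, and differences between groups were not tested.

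Of these, 2 lie in members of the list of edited miRNAs, both in the seed and both after T.
miR-411-5p, most frequent error-free read: tagtAgaccgtatagcgtacg
miR-411-5p A5G, most frequent read with the change: atagtGgaccgtatagcgtacg
miR-381-3p, most frequent error-free read: tatAcaagggcaagctctctgt
miR-381-3p A4G, most frequent read with the change: tatGcaagggcaagctctctgt
miR-411-5p A5G was read in 10 of 50 reads, a share of 20.0% (interval 10.0% to 33.7%), with 2, 0 and 1 reads untreated and 3, 2 and 2 with taurocholate. This site follows T and precedes G. miR-381-3p A4G was read in 11 of 504 reads, or 2.18% (interval 1.09% to 3.87%). It spells the first bases of miR-300, to which none of these reads aligned.

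In 3 miRNAs with at least 80 reads at the site, nearly every read had G at a base that RefSeq also gives as A.
miR-425-3p, RefSeq mature sequence as RNA: aucgggaauAucguguccgcc
miR-425-3p A10G, most frequent read with the change: catcgggaatGtcgtgtccgcc
miR-190b-5p, RefSeq mature sequence as RNA: ugauauguuugauauuAgguu
miR-190b-5p A17G, most frequent read with the change: tgatatgtttgatattGggttgt
miR-339-3p, RefSeq mature sequence as RNA: ugagcgccucgAcgacagagcca
miR-339-3p A12G, most frequent read with the change: tgagcgcctcgGcgacagagc
miR-425-3p A10G made up 208 of 209 reads, or 99.5% (interval 97.4% to 100.0%). For miR-190b-5p A17G the share was 97.5% of 80 reads, and for miR-339-3p A12G it was 95.1% of 267 reads. G was the majority base of these 3 in each of the 6 libraries, and the thinnest, untreated replicate 1 of miR-190b-5p, had it in 9 of 10 reads. Their sites in GRCr8 are bases 118143144 of chromosome 8, 177812487 of chromosome 2 and 20391456 of chromosome 12, all on the plus strand, the first within Dalrd3 and the third within C12h7orf50.

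The remaining 5 sites lay in other miRNAs. miR-466b-3p A11G had 38.6% of 1000 reads, 42.1% in untreated and 35.6% in taurocholate libraries, and 1 of its 386 reads with the change also aligned to another miRNA. miR-34b-5p A11G, which spells miR-34c, had 2.68% of 709 reads. miR-181a-2-3p A7G had 95% of 20 reads, miR-17-1-3p A11G 100% of 14 and miR-702-3p A18G 100% of 12. Here too nearly every read had G, on few reads, and RefSeq gives A at the sites of miR-181a-2-3p and miR-702-3p.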

How the results depend on the processing

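The absence of A-to-G sites at 1% in every library held under every alternative run, from 200 to 1000 covering reads, thresholds of 0.5% and 2%, and each library left out. The thresholds of 0.5% and 2% were applied to coverage that includes end-mismatched reads. For other changes, the 3 sites became 0 in the window from base 4 to the read length minus 5 and 0 at 1000 covering reads, which leave such sites out by construction, 5 at a threshold of 0.5%, and 6 at 200 covering reads, which added miR-532-5p T20C (98.8% to 99.8%), miR-28-3p C17G (87.1% to 99.5%) and miR-19b-3p C11T, the letters of miR-19a (1.57% to 4.90%). Over every read that spans the position, miR-148a-5p T18C (92.5% to 96.4%) and miR-155-5p A3C were left, while miR-27a-3p C19T fell from a mean of 5.56% to 0.324%. There edgeR called 0 sites (77 at an unadjusted p under 0.05), and the log2 ratio of A-to-G to T-to-C was 0.66 in place of 0.49.

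No site was called by edgeR's quasi-likelihood test under most alternatives. The counts were 12 (1 higher) of 5334 sites with no filter on low counts, 5 (1 higher) with the library rate of each change in the offset, and from 0 to 65 with 1 library left out, 65 without untreated replicate 2. The number of base changes whose groups did not overlap was 2, from 2 to 8 with 1 library left out (8 without untreated replicate 2), and 1 where each position weighed the same. The cause was not tested. The log2 ratio of A-to-G to T-to-C ran from 0.48 to 0.50 with 1 library left out, where 5 libraries cannot give an exact p below 0.0625, and A-to-G kept a higher rate than all 11 other changes.

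Correlations of same-numbered libraries' deviations were 0.0885, 0.110 and 0.0256, and those of differently numbered libraries ran from -0.111 to 0.0228. All were small, but the same-numbered ones were the highest, so pairing cannot be set aside. The labels name no pairs, and the main tests were unpaired. With the replicate number as a block, edgeR called 0 sites (56 at an unadjusted p under 0.05); for the A-to-G rate the replicate block gave a difference of -0.0284 and an exact p of 0.25, the smallest that 3 pairs allow. Of 447 shares of named sites recomputed, 43 moved by more than the spread between replicates: 32 rose with end-mismatched reads out of the coverage, 7 fell without shared reads and 4 fell over spanning reads. In miRNAs near 500 covering reads a single read weighs much: for miR-22-5p A15G, 1 of 605 reads in untreated replicate 1 gave 0.165%. Shares below that at such positions rest on less than 1 read in a library and could not be resolved.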
